A study of Mus musculus with 10 samples.

Results

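The genes described here are 42 mouse genes of DNA replication and mitosis, measured in cultures of bone marrow progenitors that 4 leukemia oncogenes had immortalized. They were chosen by name: every probe set that the platform annotation assigns to 1 of these symbols and to no other gene was taken, and it was kept where its signal was above 369 in at least 3 of the 10 arrays. A probe set is a group of short oligonucleotides that together give the value for 1 transcript. The array holds 96 such probe sets for 41 of the 42 genes, and 86 of them, covering all 41 genes, were kept. They are 86 of 30945 kept probe sets, out of 45101 on the array. A further probe set, which Tyms shares with its pseudogene, was left out. Ccnb1, which encodes a mitotic cyclin, has no probe set listed. Of the 41 genes, 29 are read by at least 2 kept probe sets and 12 by 1.

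Before a cell copies its DNA, the proteins encoded by Mcm2 to Mcm7 form a ring that is loaded onto replication origins by Cdc6 and Cdt1. This step is called licensing, and the ring later unwinds the DNA as part of the replisome. Genes of this S-phase group are classic targets of E2F transcription factors. Genes of mitosis are switched on later in the cycle, and many carry a CHR element, which is bound by the DREAM and MuvB complexes, together with CCAAT boxes, which are bound by NF-Y. In marrow, progenitors divide fast and these genes are turned down when the cells mature. The 41 genes were grouped by role: licensing, replisome, nucleotide and histone supply and G1/S control make up the replication roles, and mitotic cyclins and kinases, spindle checkpoint, and spindle and chromosome proteins make up the mitosis roles.

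The cultures were derived in stem cell factor without GM-CSF, and each array held total RNA from 1 culture. There were 3 clones immortalized by HoxA9, a homeobox transcription factor, and 3 by HoxA9 together with Meis1, its DNA-binding partner (HoxA9+Meis1). Another 3 clones were immortalized by NUP98-NSD1, a fusion of a nucleoporin to a histone methyltransferase, and 1 culture by MLL-ENL, a fusion of the MLL methyltransferase to an elongation factor. All groups thus carried an oncogene, and no group of untransformed progenitors was used. The labels do not say whether clones came from separate animals. Where they did not, the p-values measure the spread between clones and not between animals.

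The promoters of 9 of these genes are shown to let the letters of 5 licensing genes be set beside those of 4 mitosis genes. Each line gives the 180 bases before the annotated transcription start, 5′ to 3′ on the gene's strand, from RefSeq on GRCm38.p6. Capitals mark matches, on either strand, to the E2F motifs TTTCCCGC, TTTCGCGC, TTTGCCGC and TTTGGCGC, the CHR element TTTGAA and the CCAAT box.
Mcm2, chr6:88898781-88898960, minus strand: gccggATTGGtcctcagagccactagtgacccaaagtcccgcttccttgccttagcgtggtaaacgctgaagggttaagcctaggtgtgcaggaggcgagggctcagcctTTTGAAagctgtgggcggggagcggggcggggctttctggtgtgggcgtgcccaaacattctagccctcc
Mcm3, chr1:20820313-20820492, minus strand: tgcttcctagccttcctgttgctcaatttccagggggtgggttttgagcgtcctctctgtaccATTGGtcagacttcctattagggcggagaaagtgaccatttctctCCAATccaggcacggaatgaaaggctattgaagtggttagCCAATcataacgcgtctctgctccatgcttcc
Mcm6, chr1:128359706-128359885, minus strand: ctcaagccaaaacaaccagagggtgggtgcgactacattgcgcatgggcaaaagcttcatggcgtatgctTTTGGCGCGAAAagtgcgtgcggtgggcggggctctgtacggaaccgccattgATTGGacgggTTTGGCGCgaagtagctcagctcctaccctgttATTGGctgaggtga
Mcm7, chr5:138171884-138172063, minus strand: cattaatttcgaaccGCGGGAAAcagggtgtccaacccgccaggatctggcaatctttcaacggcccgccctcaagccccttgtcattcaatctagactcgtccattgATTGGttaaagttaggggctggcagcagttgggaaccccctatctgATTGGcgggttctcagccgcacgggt
Cdc6, chr11:98907971-98908150, plus strand: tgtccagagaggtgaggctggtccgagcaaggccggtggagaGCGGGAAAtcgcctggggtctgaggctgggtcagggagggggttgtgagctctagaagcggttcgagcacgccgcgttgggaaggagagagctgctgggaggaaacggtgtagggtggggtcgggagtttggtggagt
Cdk1, chr10:69352913-69353092, minus strand: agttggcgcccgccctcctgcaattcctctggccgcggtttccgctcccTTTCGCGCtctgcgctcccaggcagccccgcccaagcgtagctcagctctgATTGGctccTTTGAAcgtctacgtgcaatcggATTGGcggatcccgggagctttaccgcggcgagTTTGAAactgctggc
Ccnb2, chr9:70421555-70421734, minus strand: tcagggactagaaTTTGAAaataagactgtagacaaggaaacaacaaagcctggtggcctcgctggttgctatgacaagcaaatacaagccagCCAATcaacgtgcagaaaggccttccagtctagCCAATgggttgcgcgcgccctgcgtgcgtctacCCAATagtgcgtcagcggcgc
Cdc20, chr4:118437344-118437523, minus strand: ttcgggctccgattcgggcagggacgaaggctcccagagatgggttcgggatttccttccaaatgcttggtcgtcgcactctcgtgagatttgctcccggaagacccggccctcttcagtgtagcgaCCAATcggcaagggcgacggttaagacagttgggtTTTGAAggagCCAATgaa
Top2a, chr11:99024190-99024369, minus strand: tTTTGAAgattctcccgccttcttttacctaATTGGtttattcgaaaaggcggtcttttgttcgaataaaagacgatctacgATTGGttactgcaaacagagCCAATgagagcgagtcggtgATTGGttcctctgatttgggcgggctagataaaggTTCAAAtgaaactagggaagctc

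In these lines the licensing genes Mcm6, Mcm7 and Cdc6 show E2F matches and no CHR match, and Mcm3 has its E2F matches after the start, outside the bases shown. The mitotic genes Ccnb2, Cdc20 and Top2a show CHR and CCAAT matches and no E2F match. Cdk1, the main mitotic kinase, shows all 3, and Mcm2 shows a CHR match with no E2F match. The whole window, from 250 bases before to 50 after the start, was found for 33 of the 42 genes. An E2F motif lay in 8 of 18 windows of the replication roles (44.4%) and in 1 of 15 of the mitosis roles (6.67%), against 2.6% of the 27025 genes with a window. Of 7 licensing genes, 6 had one. A CHR element lay in 1 of 18 (5.56%) and in 11 of 15 (73.3%), against 20.2% of all genes. A CCAAT box lay in 12 of 18 (66.7%) and in 14 of 15 (93.3%), against 41.1%. The windows carry different letters in the 2 sets of roles, and a match is a description of letters, not a measured binding site. In 1 window, that of Mcm7, an E2F and a CCAAT match overlap or touch.

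**Figure D1:**
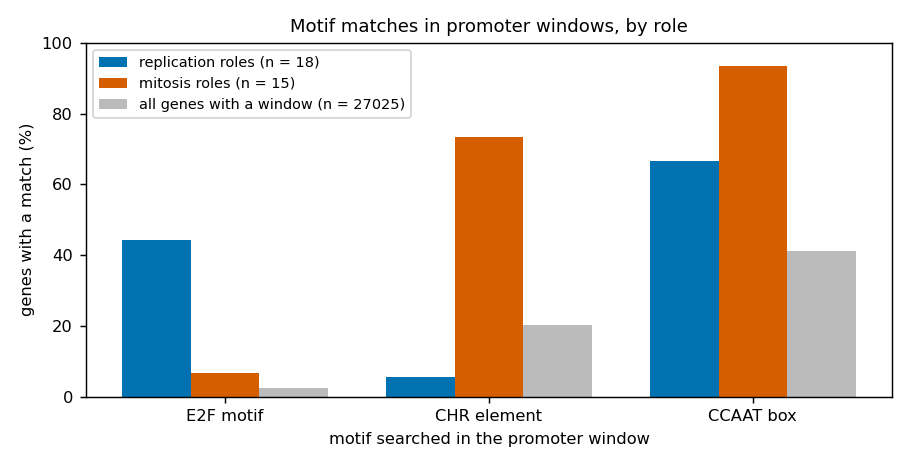
Share of genes (%) whose promoter window of 300 bases holds an E2F motif, a CHR element or a CCAAT box, for the replication roles (18 genes), the mitosis roles (15 genes) and all 27025 genes with a window. The E2F bar is tallest for the replication roles (44.4%), the CHR bar for the mitosis roles (73.3%).

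The deposited signals are on a linear scale, were scaled to a common trimmed mean by the authors or their software, and have array medians of 440.3 to 660.3. Signals were compared as log2(signal + 32), so a difference of 1 is a doubling of signal + 32. The members were bright: their median mean signal was 8583.8, against 1318.2 over all kept probe sets. The arrays fell into 2 sets. The mean log2 signal of 18 hybridization controls was 13.18 to 13.42 for HoxA9 and HoxA9+Meis1, and 14.01 to 14.13 for MLL-ENL and NUP98-NSD1. In the same order the Actb 3′ to 5′ ratio was 1.09 to 1.17 and 1.18 to 1.43. Comparisons of NUP98-NSD1 with the HoxA9 groups cross these sets, so the oncogene and the array set cannot be told apart there. The comparison of HoxA9+Meis1 with HoxA9 lies within a set, and so does that of MLL-ENL with NUP98-NSD1.

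Within 1 array set, probe sets of Mcm2, Mcm3 and Mcm7 were higher in the HoxA9+Meis1 clones than in the HoxA9 clones. No member of the mitosis roles passed the test, while of 56 further mitosis genes, given below, 2 rose and 1 fell. With limma across all kept probe sets and an adjusted p under 0.05, 7 of 86 member probe sets (8.14%) rose and 0 fell, against 6.89% called, 3.40% higher and 3.49% lower, over all 30945 probe sets. At an unadjusted p under 0.05, 18 were higher and 2 lower, against 9.27% and 9.87% of all. All 7 belong to the MCM ring, which is read by 18 probe sets: 7 of the 18 rose, 14 had a positive difference, and the median difference was 0.33, against -0.02 over all probe sets. Quantile normalization left 5 of the 18 higher, with a median of 0.27 (3.51% higher and 3.69% lower over all). A shift of the arrays to a common median left 2, Mcm2 1448777_at and Mcm3 1426652_at, with a ring median of 0.36. These 2 were 2.33% of the 86 members, beside 2.34% higher and 1.68% lower over all. The 3 Mcm7 calls were lost there, at differences of 0.45, 0.40 and 0.30 (adjusted p = 0.271, 0.195 and 0.469).

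Mcm2, a ring subunit, gave signals of 20963, 17863 and 20094 in the HoxA9 clones on probe set 1448777_at, and of 29363, 30059 and 29006 in the HoxA9+Meis1 clones. The NUP98-NSD1 clones gave 26904, 30644 and 26492, and the MLL-ENL culture 25149. All HoxA9+Meis1 clones lay above all HoxA9 clones, which were the lowest of the 10 arrays. The group means were 19640 ± 1599 (SD, n = 3) and 29476 ± 535 (SD, n = 3), a difference of 0.59 (SE 0.09, adjusted p = 0.00291). The other Mcm2 probe set, 1434079_s_at, gave 14749, 12830 and 21374 in HoxA9 and 24443, 20658 and 24081 in HoxA9+Meis1. These clones overlapped, and the difference of 0.53 did not pass (adjusted p = 0.16). The lowest group means there were those of NUP98-NSD1 (13691) and MLL-ENL (11175).

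Mcm3, another subunit, gave 7939, 9712 and 7934 in HoxA9 and 13201, 12785 and 14054 in HoxA9+Meis1 on probe set 1426652_at. NUP98-NSD1 gave 15058, 16416 and 13845, and MLL-ENL 14387. Here too the HoxA9 clones stood apart as the lowest, and HoxA9+Meis1 was higher by 0.65 (SE 0.11, adjusted p = 0.00483). A further Mcm3 probe set, 1426653_at, gave 14072, 13926 and 13466 in HoxA9, 18244, 20027 and 21795 in HoxA9+Meis1, 10067, 12911 and 15670 in NUP98-NSD1 and 14125 in MLL-ENL. On this probe set the HoxA9+Meis1 clones were the highest (0.53 above HoxA9, SE 0.14, adjusted p = 0.0498) and the other groups overlapped. The remaining Mcm3 call was 1420028_s_at, at 0.34 (adjusted p = 0.0138). Both of these calls were lost after the shift to a common median. The dimmest Mcm3 probe set, 1420029_at, read 958 to 1686 over all arrays and differed by -0.23 (adjusted p = 0.651).

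Mcm7 probe set 1416030_a_at gave 42731, 38968 and 39292 in HoxA9, 52441, 54975 and 53341 in HoxA9+Meis1, 40263, 46824 and 49176 in NUP98-NSD1 and 49734 in MLL-ENL. The HoxA9+Meis1 clones were the highest of the 10 arrays, 0.41 above HoxA9 (SE 0.08, adjusted p = 0.0154). Mcm7 also rose on 1416031_s_at (0.37, adjusted p = 0.0234) and 1438320_s_at (0.27, adjusted p = 0.0363), which both lost the call with quantile normalization. The fourth Mcm7 probe set, 1439269_x_at, differed by 0.12 (adjusted p = 0.585).

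The other ring subunits did not pass the test, and their probe sets lay on both sides of 0. Mcm4 on 1416214_at differed by 0.31 (adjusted p = 0.0663), Mcm6 on 1416251_at by 0.25 (adjusted p = 0.0833) and Mcm5 on 1415945_at by 0.28 (adjusted p = 0.291). Their further probe sets Mcm4 1436708_x_at, Mcm6 1438852_x_at and Mcm5 1436808_x_at differed by -0.12, -0.13 and -0.00. The dim Mcm5 1459658_at differed by 0.46 without overlap (adjusted p = 0.304). In 12 of the 18 ring probe sets every HoxA9+Meis1 clone was above every HoxA9 clone, and in 0 every clone was below, against 13.5% and 15.1% of all probe sets. Clones left out 1 at a time moved the count of 7. It was 2 without HoxA9 clone 2, 4 without HoxA9 clone 3, 2 without HoxA9+Meis1 clone 1, and 3 without HoxA9+Meis1 clone 2 or clone 3. Mcm2 on 1448777_at and Mcm3 on 1426652_at were called in each of these fits and under both other scalings. Mcm3 on 1426653_at lost its call without any 1 of the 6 clones, and Mcm7 on 1416030_a_at without HoxA9 clone 2 or 3 or HoxA9+Meis1 clone 1 or 2.

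Of 10 myeloid progenitor markers, 1 was called higher in HoxA9+Meis1 than in HoxA9, 1 lower and 8 neither, beside 4.18% and 4.48% of all genes. Cd34 gave 97.8, 93.9 and 1845 in HoxA9 and 48216, 48720 and 50766 in HoxA9+Meis1 (7.30 higher, adjusted p = 0.000639). Elane, the neutrophil elastase of promyelocytes, gave 114550, 116367 and 106958 in HoxA9 and 16717, 25137 and 13902 in HoxA9+Meis1 (-2.64, adjusted p = 2.84e-05). Neither gene's clones overlapped between the groups, and the part of these markers in the differences of the ring genes was not tested.

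**Figure D2:**
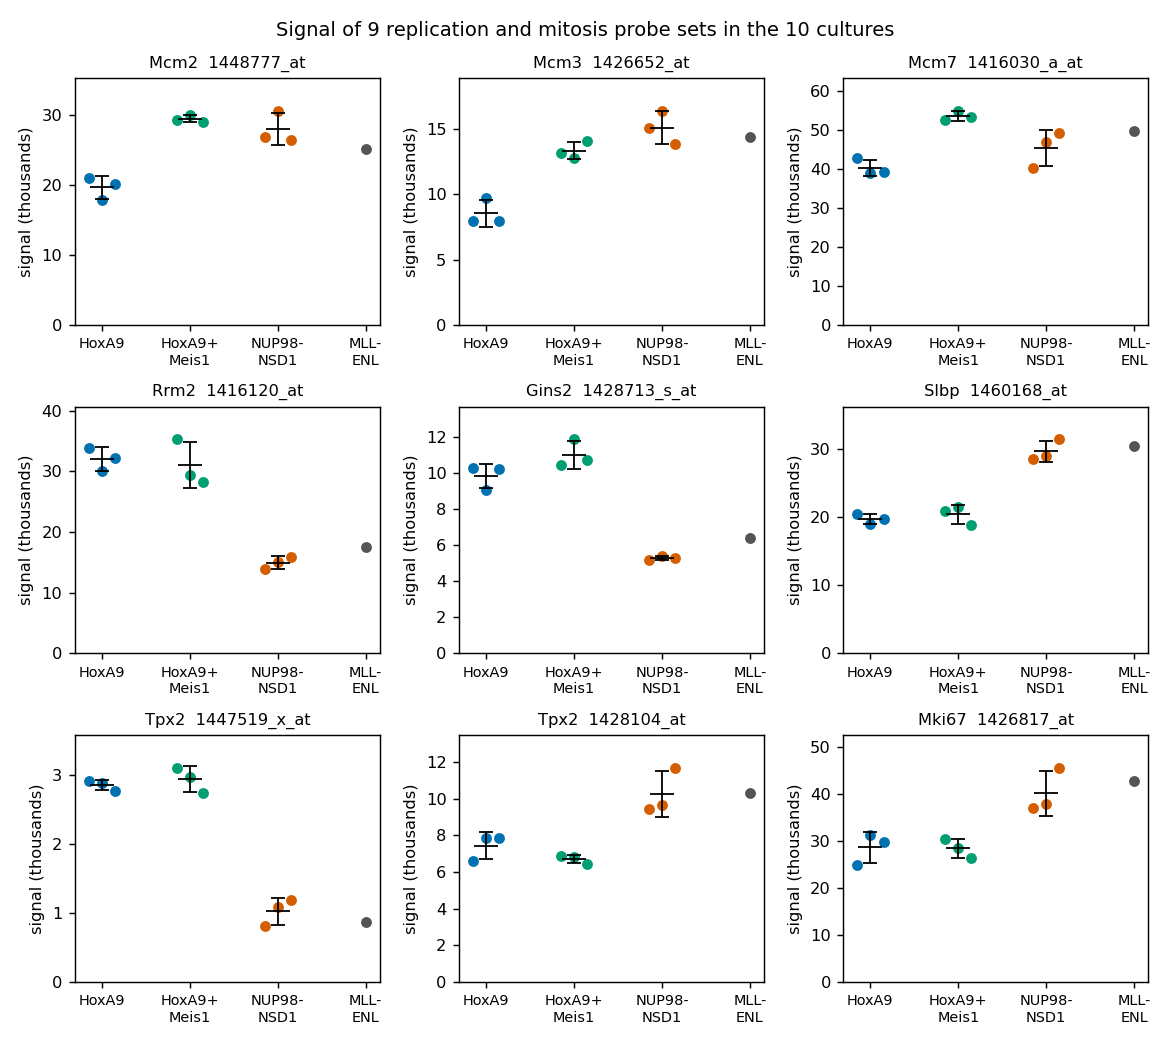
Deposited signal (divided by 1000 on the axes, which are linear and start at 0) of 9 member probe sets in the 10 cultures. Points are cultures, long bars are group means and short bars are ± 1 SD over 3 clones (MLL-ENL has 1 culture). Mcm2 1448777_at, Mcm3 1426652_at and Mcm7 1416030_a_at have their lowest group mean in HoxA9. The probe sets shown for Rrm2 and Gins2, and Tpx2 1447519_x_at, are lowest in NUP98-NSD1 and MLL-ENL.

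No member gene outside the ring passed the test in this comparison. The loader Cdc6 gave 5535, 5939 and 6213 in HoxA9, 7251, 6710 and 7410 in HoxA9+Meis1, 7708, 7567 and 6738 in NUP98-NSD1 and 7413 in MLL-ENL. Its HoxA9 clones were below all others, but the difference of 0.27 did not pass (adjusted p = 0.156). Pcna, the sliding clamp of the DNA polymerases, gave 79344, 76556 and 76460 in HoxA9, 90204, 90254 and 85742 in HoxA9+Meis1, 77933, 88447 and 104488 in NUP98-NSD1 and 92318 in MLL-ENL. The HoxA9 and HoxA9+Meis1 clones did not overlap (0.20, adjusted p = 0.302), and the NUP98-NSD1 clones spread over the range of both. Of the 37 probe sets of the mitosis roles, 0 rose and 0 fell by limma (3 and 2 at an unadjusted p under 0.05), with a median of -0.02, which was 0.02 after the shift to a common median. With quantile normalization Cdc20, the activator of the anaphase-promoting complex, fell on 1439377_x_at (-0.29, adjusted p = 0.0188), and without HoxA9+Meis1 clone 1 it fell on 1439394_x_at (-1.17, adjusted p = 0.0281).

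With each probe set centred on its mean over the 10 arrays, the median over the 18 ring probe sets was -0.18 to -0.10 in the HoxA9 clones and 0.11 to 0.15 in the HoxA9+Meis1 clones. It was 0.02 to 0.04 in the NUP98-NSD1 clones and 0.01 in MLL-ENL. The same median over the 37 mitosis probe sets was -0.07 to 0.05 in HoxA9, -0.07 to 0.05 in HoxA9+Meis1, 0.01 to 0.11 in NUP98-NSD1 and 0.06 in MLL-ENL. The ring medians of the HoxA9 and HoxA9+Meis1 clones did not overlap, and the mitosis medians did. The ring probe sets include every member call of this comparison, and the medians come from the same arrays. They describe those differences again and add no separate evidence.

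**Figure D3:**
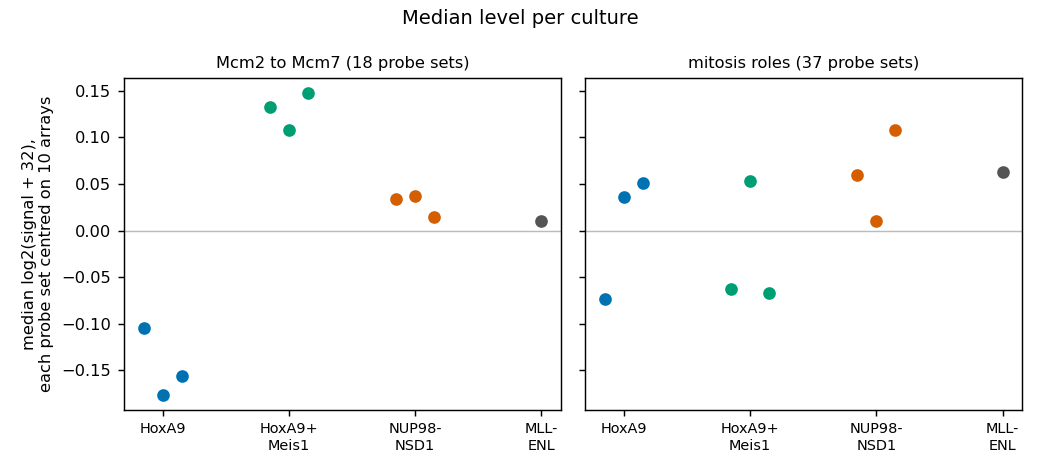
Median log2(signal + 32) per culture over the 18 probe sets of Mcm2 to Mcm7 (left) and the 37 of the mitosis roles (right), each probe set centred on its mean over 10 arrays. Points are cultures. On the left, HoxA9 lies at -0.18 to -0.10 and HoxA9+Meis1 at 0.11 to 0.15, and on the right these groups overlap. The left set includes every member probe set called between these 2 groups.

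In NUP98-NSD1 the members split both ways. Slbp, Mki67, Top2a and probe sets of Mcm2 and Mcm3 were higher than in HoxA9, while probe sets of Rrm2 and Gins2 were lower. Cdt1, Rfc3 and Ccne1 were lower as well, but not after a shift of the arrays to a common median. Against HoxA9, 17 of 86 rose and 15 fell (37.2% called), beside 12.3% higher and 16.7% lower over all probe sets (29.0% called). Against HoxA9+Meis1, 13 rose and 24 fell (43.0%), beside 13.8% higher and 17.2% lower (30.9% called). These 2 comparisons share the NUP98-NSD1 arrays. The median member difference was 0.04 against HoxA9 and -0.08 against HoxA9+Meis1, where all probe sets had medians of -0.14 and -0.13. The clones of the 2 groups did not overlap, with NUP98-NSD1 higher, on 24 members against HoxA9 (27.9%, beside 18.1% over all) and on 20 against HoxA9+Meis1 (23.3%, beside 19.5%). NUP98-NSD1 was lower without overlap on 20 (23.3%, beside 25.7%) and 29 (33.7%, beside 25.5%).

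The balance of rises and falls depended on the scaling. Shifting the arrays to a common median moved the median of all probe sets up by 0.19 against HoxA9 and 0.15 against HoxA9+Meis1. The members then split 16 higher to 5 lower against HoxA9 (14.4% and 7.99% over all) and 12 to 8 against HoxA9+Meis1 (14.5% and 9.29%). Quantile normalization gave 15 to 16 (12.3% and 15.5% over all) and 13 to 25 (13.7% and 16.6%). Of the member calls given below, those lost after the shift are named with each gene. Brightness moved with the direction against HoxA9 as well: the 43 brighter members split 13 higher to 6 lower, and the 43 dimmer ones 4 to 9. Over all kept probe sets, the median was 0.04 for those as bright as the brighter members and -0.19 for the rest. Its part in the result was not tested.

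**Figure D4:**
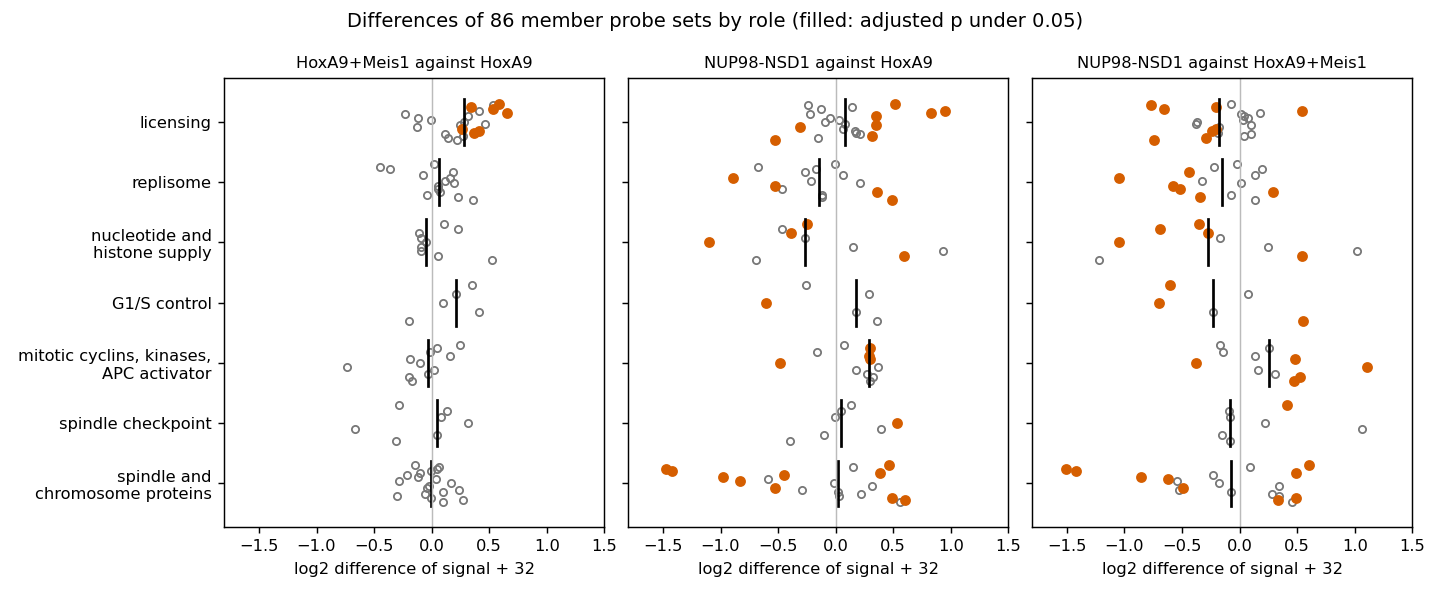
Log2 differences of signal + 32 for the 86 member probe sets, by role, in 3 comparisons. Points are probe sets, filled where the adjusted p is under 0.05, and black bars are role medians. Against HoxA9, the 7 calls for HoxA9+Meis1 are all in licensing, and the calls for NUP98-NSD1 lie on both sides of 0.

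Of 21 licensing probe sets, 6 were higher in NUP98-NSD1 than in HoxA9 (28.6%) and 2 lower (9.52%), beside 12.3% and 16.7% over all. Against HoxA9+Meis1 1 rose (4.76%) and 7 fell (33.3%), beside 13.8% and 17.2%. After the shift to a common median the splits were 6 to 0 and 1 to 2. Mcm3 on 1426652_at was 0.83 above HoxA9 (SE 0.11, adjusted p = 0.000443), and 0.18 above HoxA9+Meis1 (adjusted p = 0.234). Mcm2 on 1448777_at was 0.51 above HoxA9 (SE 0.09, adjusted p = 0.00208) and -0.08 from HoxA9+Meis1 (adjusted p = 0.537). In the values given above, NUP98-NSD1 and HoxA9+Meis1 overlapped on the Mcm2 probe set and both lay above HoxA9.

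A different Mcm3 probe set, 1449705_x_at, gave 10238, 10944 and 10015 in HoxA9, 14447, 11906 and 15335 in HoxA9+Meis1, 18916, 24189 and 17670 in NUP98-NSD1 and 18780 in MLL-ENL. The 3 groups did not overlap, and NUP98-NSD1 was 0.95 above HoxA9 (SE 0.13, adjusted p = 0.000647) and 0.54 above HoxA9+Meis1 (adjusted p = 0.0114). On 1426653_at, however, NUP98-NSD1 was below HoxA9+Meis1 (-0.65, SE 0.14, adjusted p = 0.00627), a call lost after the shift to a common median (-0.50, adjusted p = 0.137). Mcm2 likewise fell against HoxA9+Meis1 on 1434079_s_at (-0.77, adjusted p = 0.0143). Mcm5 on 1436808_x_at, its brightest probe set, gave 47209, 47339 and 50098 in HoxA9, 49225, 48362 and 46861 in HoxA9+Meis1, 48609, 49296 and 49658 in NUP98-NSD1 and 51343 in MLL-ENL. These groups overlapped throughout, with differences from 0.03 in either NUP98-NSD1 comparison to -0.00 between the HoxA9 groups.

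The loaders differed from each other. Cdc6 rose against HoxA9 by 0.31 (adjusted p = 0.0393), a call that was lost with quantile normalization and when any HoxA9 clone, or NUP98-NSD1 clone 1 or 2, was left out. Cdt1, whose product brings the ring to origins, gave 23314, 22915 and 21119 in HoxA9 on 1424144_at, 24885, 26856 and 26824 in HoxA9+Meis1, 15530, 14292 and 17036 in NUP98-NSD1 and 17864 in MLL-ENL. The NUP98-NSD1 clones lay below both HoxA9 groups: Cdt1 fell by 0.53 (adjusted p = 0.00179) and 0.75 (adjusted p = 0.00024) in the respective comparisons. The first call was lost after the shift to a common median (-0.34, adjusted p = 0.18). On 1424143_a_at Cdt1 differed by -0.29 from HoxA9+Meis1 (adjusted p = 0.0232) and by -0.15 from HoxA9 (adjusted p = 0.192), and the former was lost after that shift. Mcm6, a ring subunit, rose against HoxA9 on 1416251_at (0.35, adjusted p = 0.00726) and fell on 1438852_x_at (-0.31, adjusted p = 0.0212), which became -0.12 and lost the call after that shift.

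In the replisome, 2 of 14 probe sets rose (14.3%) and 2 fell (14.3%) against HoxA9, near the 12.3% and 16.7% over all. Against HoxA9+Meis1 1 rose (7.14%) and 5 fell (35.7%), beside 13.8% and 17.2%. After the shift to a common median the splits were 1 to 1 and 0 to 1. Gins2, a subunit of the GINS complex that joins the ring to the moving helicase, gave 10288, 9077 and 10225 in HoxA9 on 1428713_s_at. It gave 10456, 11913 and 10736 in HoxA9+Meis1, 5185, 5418 and 5315 in NUP98-NSD1 and 6418 in MLL-ENL. All NUP98-NSD1 and MLL-ENL cultures lay well below the 6 others: the NUP98-NSD1 difference was -0.89 from HoxA9 (SE 0.10, adjusted p = 0.000159) and -1.05 from HoxA9+Meis1 (adjusted p = 6.96e-05). Its other probe set, 1452881_at, differed by -0.21 and -0.33 (adjusted p = 0.249 and 0.0809).

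Rfc3, a subunit of the clamp loader, fell on 1432538_a_at by 0.52 and 0.58 (adjusted p = 0.0216 and 0.0129), while Rfc4 of the same complex rose on 1424321_at by 0.36 and 0.29 (adjusted p = 0.0206 and 0.0464). All 4 calls were lost after the shift to a common median, at -0.34 and -0.43 for Rfc3 and 0.55 and 0.44 for Rfc4. Pole, the catalytic subunit of a leading-strand polymerase, rose against HoxA9 (0.49, adjusted p = 0.0128). Pola1, of the polymerase that makes the primers, fell against HoxA9+Meis1 (-0.35, adjusted p = 0.0406; -0.19 and lost after that shift). Gins1, a further GINS subunit, fell against HoxA9+Meis1 on 1452598_at (-0.44, adjusted p = 0.0295), also lost after it. Pcna did not pass in either comparison (0.21 and 0.01, adjusted p = 0.119 and 0.922), nor did the 3 probe sets of Mcm10, a scaffold of the helicase.

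In nucleotide and histone supply, 1 of 9 probe sets rose (11.1%) and 3 fell (33.3%) against HoxA9, beside 12.3% and 16.7% over all. Against HoxA9+Meis1 1 rose (11.1%) and 4 fell (44.4%), beside 13.8% and 17.2%. Each split was 1 to 1 after the shift to a common median, with the fall in Rrm2 on 1416120_at. Rrm2, the regulated subunit of ribonucleotide reductase, gave 33875, 29993 and 32142 in HoxA9 on 1416120_at. It gave 35304, 29300 and 28268 in HoxA9+Meis1, 13811, 15094 and 15908 in NUP98-NSD1 and 17541 in MLL-ENL. The difference of NUP98-NSD1 was -1.10 from HoxA9 (SE 0.10, adjusted p = 7.1e-05) and -1.04 from HoxA9+Meis1 (SE 0.10, adjusted p = 9.12e-05), with no overlap.

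The other Rrm2 probe sets moved less. The brightest, 1434437_x_at, gave 47595, 46610 and 47587 in HoxA9, 49167, 40544 and 41856 in HoxA9+Meis1, 33721, 34695 and 40141 in NUP98-NSD1 and 28100 in MLL-ENL. NUP98-NSD1 lay below both HoxA9 groups there, by -0.39 (adjusted p = 0.0112) and -0.28 (adjusted p = 0.0453), which became -0.20 and -0.12 and lost the call after the shift to a common median. The call against HoxA9+Meis1 was also lost without HoxA9+Meis1 clone 1 or 3 or NUP98-NSD1 clone 1 or 2. The third, 1448226_at, differed by -0.26 and -0.17 (adjusted p = 0.114 and 0.285). Rrm1, the large subunit of the same enzyme, fell on 1415878_at by 0.25 and 0.36 (adjusted p = 0.038 and 0.00727), which became -0.06 and -0.20 and lost the call after that shift.

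Slbp, which binds the stem-loop of histone messages, went the other way: 20468, 18971 and 19737 in HoxA9, 20925, 21563 and 18928 in HoxA9+Meis1, 28605, 29043 and 31530 in NUP98-NSD1 and 30459 in MLL-ENL on 1460168_at. The NUP98-NSD1 and MLL-ENL cultures were above the 6 others, by 0.59 for NUP98-NSD1 against HoxA9 (SE 0.08, adjusted p = 0.000591) and 0.54 against HoxA9+Meis1 (adjusted p = 0.000902). Its dim probe set 1430058_at, at 75 to 884, did not pass (-0.69 and -1.22, adjusted p = 0.43 and 0.162). The kept Tyms probe sets, for thymidylate synthase, were dim as well (203 to 954) and did not pass.

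Of the genes of G1/S control, 0 of 5 probe sets rose and 1 fell against HoxA9 (1 and 1 at an unadjusted p under 0.05), and 1 rose and 2 fell against HoxA9+Meis1. Over all probe sets 12.3% rose and 16.7% fell in the former and 13.8% and 17.2% in the latter. Ccne1, an S-phase cyclin, gave 5915, 6834 and 5860 in HoxA9, 6523, 6270 and 7134 in HoxA9+Meis1, 3899, 4259 and 4025 in NUP98-NSD1 and 4483 in MLL-ENL on 1441910_x_at. It fell by 0.60 and 0.70 on the log2 scale (adjusted p = 0.00274 and 0.00107) with no overlap, and the call against HoxA9 was lost after the shift to a common median. Its other probe set 1416492_at differed by 0.18 and -0.23 and did not pass (adjusted p = 0.542 and 0.413).

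Ccne2, the related cyclin, gave 3120, 4326 and 3954 in HoxA9, 3741, 3093 and 3062 in HoxA9+Meis1, 4729, 5085 and 4703 in NUP98-NSD1 and 5277 in MLL-ENL. NUP98-NSD1 was above both groups, by 0.55 against HoxA9+Meis1 (adjusted p = 0.016) and 0.36 against HoxA9 (adjusted p = 0.0876). The call was lost without HoxA9+Meis1 clone 2 or 3 or NUP98-NSD1 clone 2. E2f1, the transcription factor of this step, gave 4024, 4251 and 4315 in HoxA9, 5179, 5153 and 5701 in HoxA9+Meis1, 3047, 3667 and 3832 in NUP98-NSD1 and 5320 in MLL-ENL on 1431875_a_at. NUP98-NSD1 was lowest and fell against HoxA9+Meis1 by 0.60 (adjusted p = 0.00411), a call lost after the shift to a common median, while against HoxA9 the difference was -0.26 (adjusted p = 0.128). The dimmer E2f1 probe set, 1417878_at, went the other way without a call. NUP98-NSD1 was 0.29 above HoxA9 there without overlap (adjusted p = 0.193) and 0.07 above HoxA9+Meis1 (adjusted p = 0.761).

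In the mitosis roles 8 of 37 probe sets rose (21.6%) and 7 fell (18.9%) against HoxA9, beside 12.3% and 16.7% over all. Against HoxA9+Meis1 9 rose (24.3%) and 6 fell (16.2%), beside 13.8% and 17.2%. After the shift to a common median the splits were 8 to 3 (14.4% and 7.99% over all) and 9 to 3 (14.5% and 9.29%). The medians of the mitosis roles, 0.13 and 0.13, then became 0.32 and 0.29. The replication roles by comparison split 9 to 8 and 4 to 18 over 49 probe sets, or 8 to 2 and 3 to 5 after that shift. Their medians of -0.05 and -0.19 then became 0.14 and -0.04. Without HoxA9+Meis1 clone 1, 2 or 3, or NUP98-NSD1 clone 2, the 24 members lower than in HoxA9+Meis1 became 14, 13, 15 and 15.

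Mki67, the common proliferation marker, gave 24875, 31236 and 29853 in HoxA9, 30451, 28532 and 26402 in HoxA9+Meis1, 37010, 37764 and 45634 in NUP98-NSD1 and 42832 in MLL-ENL. It was higher in NUP98-NSD1 by 0.49 in both comparisons (adjusted p = 0.00916 and 0.00797). Top2a, the topoisomerase that untangles chromosomes, gave 25567, 31912 and 29532, then 34070, 35918 and 34641, then 43456, 41332 and 46760, and 40990 in the same order of groups on 1454694_a_at. The 3 replicated groups did not overlap, with NUP98-NSD1 0.60 above HoxA9 (adjusted p = 0.00104) and 0.33 above HoxA9+Meis1 (adjusted p = 0.0198). The latter call was lost after the shift to a common median and without HoxA9+Meis1 clone 1 or 3.

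Of the mitotic cyclins, kinases and the APC activator Cdc20, 3 of 11 probe sets rose (27.3%) and 1 fell (9.09%) against HoxA9. Against HoxA9+Meis1 4 rose (36.4%) and 1 fell (9.09%). Over all probe sets 12.3% rose and 16.7% fell in the former and 13.8% and 17.2% in the latter. Cdk1 gave 23873, 24119 and 24723 in HoxA9, 26372, 28242 and 26597 in HoxA9+Meis1, 26762, 29428 and 33246 in NUP98-NSD1 and 25785 in MLL-ENL. It was 0.29 above HoxA9 (adjusted p = 0.0285; 0.48 and no longer called after the shift to a common median) and 0.13 above HoxA9+Meis1 (adjusted p = 0.265). The Cdk1 call was also lost without any HoxA9 clone in turn and without NUP98-NSD1 clone 2 or 3. Ccna2, the cyclin of S and G2 phase, rose on 1417910_at against HoxA9 (0.30, adjusted p = 0.0312). Its other probe set, 1417911_at, differed by 0.08 from HoxA9 and -0.17 from HoxA9+Meis1 and did not pass (adjusted p = 0.54 and 0.158). Ccnb2, a mitotic cyclin, and Aurka, a spindle pole kinase, did not pass: they differed by -0.16 and 0.27 from HoxA9 and by -0.14 and 0.31 from HoxA9+Meis1.

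Plk1, a kinase of mitotic entry, gave 8153, 9884 and 9996 in HoxA9, 8440, 11006 and 9087 in HoxA9+Meis1, 8385, 10792 and 12935 in NUP98-NSD1 and 9214 in MLL-ENL. All groups overlapped (0.18 and 0.16, adjusted p = 0.435 and 0.495). Aurkb, the kinase of the chromosomal passenger complex, gave 8547, 9501 and 7454 in HoxA9, 7584, 7093 and 7458 in HoxA9+Meis1, 9432, 10255 and 12336 in NUP98-NSD1 and 10133 in MLL-ENL on 1424128_x_at. It rose against HoxA9+Meis1 (0.52, adjusted p = 0.00994), and against HoxA9 the groups overlapped (0.33, adjusted p = 0.0718). Among the checkpoint kinases, Bub1b rose against HoxA9 on 1447363_s_at (0.53, adjusted p = 0.00356), and Bub1 rose against HoxA9+Meis1 on 1424046_at (0.41, adjusted p = 0.0146). The brightest Bub1b probe set, 1416961_at, did not pass (-0.01 and -0.09, adjusted p = 0.959 and 0.555). Bub1 on 1438571_at did not pass either (0.04 and -0.09, adjusted p = 0.907 and 0.797). Ttk, another checkpoint kinase, did not pass on either probe set. Kif11, the motor that pushes spindle poles apart, fell on 1452314_at (-0.53 and -0.49, adjusted p = 0.0113 and 0.0149), while 1435306_a_at differed by 0.32 and 0.34 (adjusted p = 0.0837 and 0.0632). Both Kif11 calls were lost after the shift to a common median (-0.34 and -0.34, adjusted p = 0.222 and 0.221). Birc5, a passenger complex subunit, and the motors Kif20a and Cenpe did not pass in either comparison.

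Several genes gave opposite calls on different probe sets. Tpx2, a spindle assembly factor, gave 2917, 2880 and 2775 in HoxA9, 3111, 2980 and 2747 in HoxA9+Meis1, 808, 1079 and 1186 in NUP98-NSD1 and 867 in MLL-ENL on 1447519_x_at. On 1428104_at it gave 6585, 7871 and 7849, then 6888, 6797 and 6445, then 9447, 9650 and 11715, and 10347. The first was lowest in NUP98-NSD1 and MLL-ENL, and the second highest there.

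For Tpx2 in NUP98-NSD1 against HoxA9 the differences were -1.47 (adjusted p = 0.000249) and 0.46 (adjusted p = 0.0133), and against HoxA9+Meis1 they were -1.51 (adjusted p = 0.000215) and 0.60 (adjusted p = 0.00325). The neighbouring probe set 1447518_at gave 2489, 2982 and 2815, then 2708, 3440 and 2228, then 735, 1258 and 1101, and 1196, and fell by 1.42 in both comparisons. The fourth, 1428105_at, differed by 0.15 and 0.09 and did not pass. The positions of the probes in the transcripts were not used here.

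Cdc20 rose on 1439377_x_at (0.29 and 0.48, adjusted p = 0.00906 and 0.00062) and fell on 1416664_at (-0.48 and -0.38, adjusted p = 0.003 and 0.00902). The falls became -0.29 and -0.23 and lost the call after the shift to a common median, and the rise against HoxA9 became 0.17 and lost it with quantile normalization. The dim probe set 1439394_x_at gave 1144, 1247 and 1503 in HoxA9, 1419, 526 and 586 in HoxA9+Meis1, 1425, 1712 and 1927 in NUP98-NSD1 and 1187 in MLL-ENL. HoxA9+Meis1 clone 1 stood apart from its group, and NUP98-NSD1 was 1.10 above that group (adjusted p = 0.0296), a call lost without HoxA9+Meis1 clone 2 or 3 or NUP98-NSD1 clone 2 or 3. Aspm, a spindle pole protein, rose on 1422814_at (0.39 and 0.49, adjusted p = 0.0354 and 0.0126). On 1441520_at it gave 1474, 1324 and 1671 in HoxA9, 1487, 1301 and 1311 in HoxA9+Meis1, 836, 768 and 626 in NUP98-NSD1 and 716 in MLL-ENL, and fell by 0.98 and 0.86 (adjusted p = 0.00569 and 0.00986). Aspm also fell against HoxA9 on 1452459_at (-0.45, adjusted p = 0.0493) and 1458560_at (-0.83, adjusted p = 0.0412), and against HoxA9+Meis1 on 1458873_at (-0.62, adjusted p = 0.0428). These 3 calls were lost under both other scalings.

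Of 6 member genes with at least 2 called probe sets against HoxA9, 4 had calls both ways: Aspm, Cdc20, Mcm6 and Tpx2. Over all genes that share was 289 of 1357 (21.3%). Against HoxA9+Meis1 they were 4 of 10, Aspm, Cdc20, Mcm3 and Tpx2, beside 334 of 1540 (21.7%). After the shift to a common median, Aspm and Tpx2 remained, 2 of 4 in each comparison, beside 14.9% and 16.8% of all genes. Between HoxA9+Meis1 and HoxA9, within 1 array set, opposite calls were found in 0 of 2 member genes and in 1 of 346 genes over all (0.289%). Between MLL-ENL and NUP98-NSD1 no member gene had 2 called probe sets, and 2 of 135 genes over all had opposite calls (1.48%). Opposite calls within a gene were thus common in the comparisons that cross the array sets and rare within a set. Whether the array set made them was not tested.

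**Figure D5:**
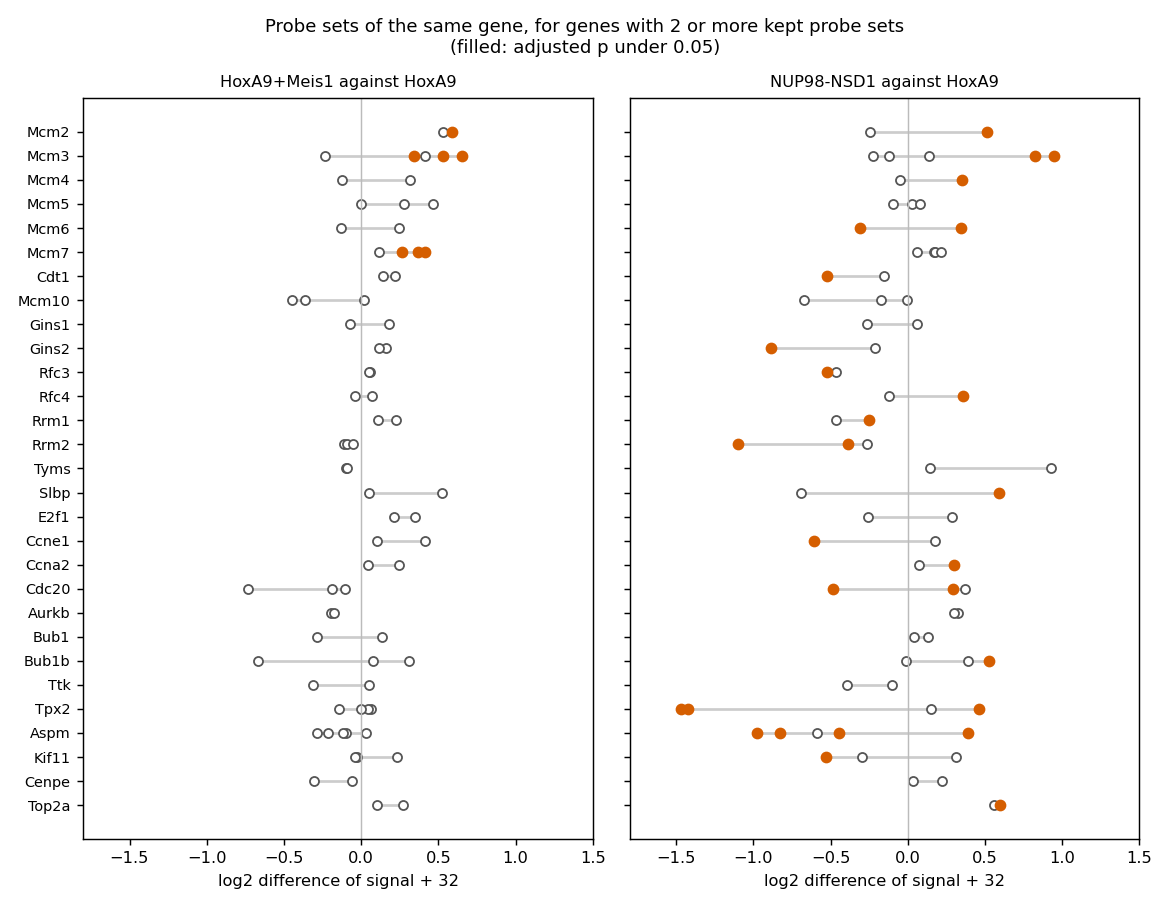
Log2 differences of signal + 32 for the 29 member genes with at least 2 kept probe sets, in HoxA9+Meis1 (left) and NUP98-NSD1 (right) against HoxA9. Points are probe sets joined by a line per gene, filled where the adjusted p is under 0.05. On the left the called points of Mcm2, Mcm3 and Mcm7 are all above 0, and on the right Tpx2, Aspm, Cdc20 and Mcm6 have called points on both sides.

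The MLL-ENL culture did not differ from NUP98-NSD1 at the threshold on any member probe set. By limma 0 of 86 rose and 0 fell, beside 3.98% called, 1.18% higher and 2.80% lower, over all probe sets, and 5 and 4 had an unadjusted p under 0.05, beside 6.62% and 12.1%. The test rests on 1 array, which is assumed to vary like the clones. The nearest to a call were Aspm on 1458560_at, at 237 in MLL-ENL and 1019, 635 and 626 in NUP98-NSD1 (-1.52, adjusted p = 0.053), and on 1458873_at, at 370 and 878, 873 and 733 (-1.09, adjusted p = 0.0675). E2f1 on 1431875_a_at followed, at 5320 against the 3047, 3667 and 3832 given above (0.60, SE 0.17, adjusted p = 0.0807).

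Leaving out NUP98-NSD1 clone 3 gave 2 rises and 2 falls. Mcm5 on 1415945_at was then 0.54 higher (adjusted p = 0.00935) and E2f1 on 1431875_a_at 0.67 higher (adjusted p = 0.0344), and the same Aspm probe sets were lower by -1.64 and -1.18 (adjusted p = 0.0299 and 0.032). That clone gave 31733 for Mcm5, near the 31474 of MLL-ENL, where NUP98-NSD1 clones 1 and 2 gave 21629 and 21729. Shifting the arrays to a common median moved the median of all probe sets up by 0.29 and the member median from 0.04 to 0.33, with 0 calls either way (0.953% and 1.42% over all). Quantile normalization also gave 0 calls (0.843% and 1.85% over all). MLL-ENL was above all 9 other arrays on 12 of 86 member probe sets (14.0%, beside 9.19% over all) and below all of them on 9 (10.5%, beside 19.0%). The former include both Rfc4 probe sets, Aurka, Ccna2 on 1417910_at, Ccnb2 and Ccne2, and the latter include 2 of Rrm2 and 3 of Aspm.

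Other genes of the same pathways, read by the brightest probe set of each gene, moved both ways too. Of 43 further replication genes, 8 were called higher and 4 lower when NUP98-NSD1 was set against HoxA9, and 4 higher and 6 lower against HoxA9+Meis1. After the shift to a common median these were 7 to 0 and 5 to 0. Over all 14233 genes read this way, 13.1% rose and 18.2% fell in the former and 14.2% and 18.5% in the latter. Orc3, of the origin recognition complex, rose by 0.68 and 1.06 (adjusted p = 0.0146 and 0.0014), and Orc2 of the same complex fell by 0.59 and 0.71 (adjusted p = 0.0225 and 0.009). Both Orc2 calls were lost after the shift to a common median, where 0 of the 43 fell. In HoxA9+Meis1 against HoxA9, 2 of the 43 rose and 0 fell, beside 4.18% and 4.48% of genes: Pola2, partner of Pola1 (0.58, adjusted p = 0.00587), and Dut, which keeps uracil out of DNA (0.57, adjusted p = 0.00189). After the shift to a common median 1 of the 43 rose and 0 fell there.

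Of 56 further mitosis genes, 8 rose and 14 fell against HoxA9, and 9 rose and 15 fell against HoxA9+Meis1, or 7 to 3 and 6 to 3 after the shift to a common median. Before that shift 13.1% of all genes rose and 18.2% fell in the former, and 14.2% and 18.5% in the latter. Ncapg, a condensin subunit, rose by 1.21 and 1.28 (adjusted p = 0.000364 and 0.000259). Foxm1, a transcription factor of mitotic genes, fell by 0.84 and 0.82 (adjusted p = 0.000512 and 0.000566), and Cdca8, a partner of Aurkb, fell by 0.83 and 0.67 (adjusted p = 6.5e-05 and 0.000197). In HoxA9+Meis1 against HoxA9, 2 of the 56 rose and 1 fell, beside 4.18% and 4.48% of all genes, or 0 and 0 after that shift. Pbk differed by 0.425, Ube2s by 0.377 and Anln by -0.456 (limma, adjusted p = 0.0133, 0.0221 and 0.0227). In MLL-ENL against NUP98-NSD1, 0 of the 43 replication genes were called, beside 1.69% higher and 2.93% lower over all genes.

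Of 15 genes that hold back cycle entry, 6 rose and 2 fell against HoxA9, beside 13.1% and 18.2% of all genes. Against HoxA9+Meis1 4 rose and 1 fell, beside 14.2% and 18.5%. Cdkn1b, a CDK inhibitor, gave 3593, 4340 and 3525 in HoxA9, 4539, 4320 and 4136 in HoxA9+Meis1, 8917, 8032 and 10284 in NUP98-NSD1 and 8409 in MLL-ENL. It was 1.24 and 1.06 higher in NUP98-NSD1, with no overlap (adjusted p = 0.000125 and 0.000282). Cdkn1a, another CDK inhibitor, was the 1 of the 15 that rose in HoxA9+Meis1 against HoxA9 (1.25, adjusted p = 0.0107). It gave 2999, 2438 and 1474 in HoxA9 and 6122, 5427 and 4450 in HoxA9+Meis1, in the same clones in which Mcm2, Mcm3 and Mcm7 rose. Cdkn2c, an inhibitor of the G1 kinases, gave 10480, 17013 and 11694 in HoxA9 and 10200, 10715 and 9038 in HoxA9+Meis1. It gave 4337, 4616 and 6939 in NUP98-NSD1 and 54106 in MLL-ENL. NUP98-NSD1 was lower than both HoxA9 groups without overlap (-1.30 and -0.94, limma, adjusted p = 0.00132 and 0.00645), and MLL-ENL was 3.38 above NUP98-NSD1. After the shift to a common median, the 15 genes split 6 to 1 against HoxA9 and 4 to 0 against HoxA9+Meis1.

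The marker genes of cell types moved with the groups. The summed signal of 10 myeloid progenitor markers was 585956 to 1028492, and 0 of the 10 were below the filter level on all arrays of a group. Cd34, a marker of early progenitors, was below it in HoxA9 clones 1 and 2. The summed signal of 10 mature neutrophil markers was 16019 to 74989 in HoxA9, 11088 to 95889 in HoxA9+Meis1, 439319 to 984977 in NUP98-NSD1 and 18832 in MLL-ENL. Camp, Cxcr2 and Padi4 were below the filter level on all arrays of both HoxA9 groups. In NUP98-NSD1 8 of 9 kept neutrophil markers rose against HoxA9, beside 13.1% of all genes. The summed signal of 6 mast cell markers was 5482 to 10041, 12496 to 23155, 58650 to 262795 and 3098 in the same order, with Gzmb below the level in HoxA9 and Hdc and Gzmb in HoxA9+Meis1 and MLL-ENL. Their part in the differences of NUP98-NSD1 was not tested, and in bulk RNA fewer cells of a type and less transcript per cell cannot be told apart.

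MLL-ENL had neutrophil and mast cell sums as low as the HoxA9 groups, and it shared the array set of NUP98-NSD1. Its members lay nearer to NUP98-NSD1 in some cases and not in others. Rrm2 on 1416120_at was 13811 to 15908 in NUP98-NSD1 and 17541 in MLL-ENL, and Gins2 on 1428713_s_at was 5185 to 5418 and 6418. E2f1 on 1431875_a_at was 3047 to 3832 in NUP98-NSD1, 5320 in MLL-ENL and 5153 to 5701 in HoxA9+Meis1. The part of the markers or of the array set in these values was not tested. Between HoxA9+Meis1 and HoxA9 the neutrophil sums overlapped, with 2 of 9 kept markers higher, while the mast cell sums did not, with 0 of 6 called by limma. The myeloid progenitor sums did not overlap (585956 to 599742 in HoxA9+Meis1 and 643850 to 699541 in HoxA9), with 1 of 10 markers higher, Cd34, and 1 lower, Elane. The summed signal of 5 monocyte and macrophage markers, 20339 to 31939 in HoxA9 and 41975 to 82415 in HoxA9+Meis1, did not overlap either, with 2 of 5 higher. The sum of 5 stroma markers was 2757 to 5522 in HoxA9 and 7977 to 9669 in HoxA9+Meis1, with 1 of 5 higher. That was Pecam1, at 479, 434 and 2872 in HoxA9 and 6191, 6736 and 5841 in HoxA9+Meis1. The other 4, Col1a1, Col1a2, Col3a1 and Cdh5, overlapped between the groups and were not called. Over all genes 4.18% were called higher and 4.48% lower in HoxA9+Meis1 against HoxA9. Erythroid, B cell and T cell sums stayed between 1291 and 8420 on all arrays. Their part in the rise of the ring genes was not tested.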

How the data were processed

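RNA of 10 cultures was measured on Affymetrix arrays. In the table the authors deposited, each array has a linear intensity for every probe set, and 0 value columns lack a sample. Which software made it is not given in the sources used here, and its scaling was read from the values. The trimmed mean (2% off each end) is 2500.01 to 2500.02 on every array, so the authors' values were used as deposited.

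Symbols came from the platform annotation, updated by Entrez ID. A probe set was kept where its signal exceeded 369.318, percentile 40 of the whole table, in 3 or more arrays. log2(signal + 32) was fitted over all 30945 kept probe sets with limma 3.58.1 in R 4.3.3: 4 group means, eBayes with an intensity trend, and a two-sided Benjamini-Hochberg adjusted p under 0.05 per comparison. The members, roles and lists were chosen with earlier results of these data known. Array values were given for the 4 largest called differences each way per comparison and for the brightest probe sets of 12 genes of the pathway's main steps, and for values needed beside them. Of other lists, up to 3 called genes each way per comparison could be named. The fit was tested on simulated data. Promoter windows are RefSeq's on GRCm38.p6. Precision is limited by 3 clones per group and 1 MLL-ENL array. Alternatives were quantile normalization, a common median, offsets of 1 and 100, other filters, 1 probe set per gene, no _x_at, _s_at or _a_at probe sets, eBayes without trend or robust, the compared groups alone, the clone number as a block, and each clone left out. Figures used Python 3.11.15 and matplotlib 3.10.9.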

Additional observations from a re-analysis of the deposited data

How the results depend on the processing

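Over 38 named differences and 649 alternative values, 576 kept their direction and their call, 73 kept the direction and lost the call, and 0 reversed. The member counts moved as follows, and the cause was not tested beyond fewer probe sets or arrays in the fit. With a common median, falls in NUP98-NSD1 numbered 5 against HoxA9 and 8 against HoxA9+Meis1, and rises in HoxA9+Meis1 numbered 2. The medians were then 0.226 and 0.071 in NUP98-NSD1 against HoxA9 and HoxA9+Meis1, 0.089 in HoxA9+Meis1, and 0.329 in MLL-ENL. With quantile normalization the median was 0.002 against HoxA9 and 0.0 for MLL-ENL, and 1 member fell in HoxA9+Meis1. With 1 probe set per gene, falls were 5 and 11, rises in HoxA9+Meis1 3, and the medians in NUP98-NSD1 0.147 and 0.031. Without _x_at, _s_at and _a_at probe sets, rises were 11 and 7, falls 9 and 13, and rises in HoxA9+Meis1 2. Without the intensity trend, rises against HoxA9 were 9, falls against HoxA9+Meis1 14, rises in HoxA9+Meis1 2 and falls in MLL-ENL 1. An offset of 1 gave 1 fall in MLL-ENL. With 1 clone left out, NUP98-NSD1 had 12 to 17 rises and 10 to 18 falls against HoxA9, and 9 to 14 rises and 13 to 22 falls against HoxA9+Meis1, with medians of 0.013 to 0.058 and -0.099 to -0.041. HoxA9+Meis1 had 2 to 5 rises and 0 to 1 falls (median 0.023 to 0.097), and MLL-ENL 0 to 2 of each (median 0.005 to 0.052). Clones that share a number did not deviate together (correlations of -0.06 to 0.04), so no pairing by number was seen in the signals. These correlations cannot settle whether such clones share an origin. With the clone number as a replicate block, NUP98-NSD1 had 16 rises and 12 falls against HoxA9 and 13 and 17 against HoxA9+Meis1, and HoxA9+Meis1 had 6 rises. MLL-ENL, with 1 culture, had no block fit. Dim members limit the rest: 10 member probe sets, of Top2a, Tyms, Slbp, Rrm1, Aurka, Mcm6, E2f1, Cdt1 and Pola1, were not above the filter level in 3 arrays.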

Other observations

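A probe set that Tyms shares with its pseudogene Tyms-ps, 1424991_s_at, was left out of the members because its annotation lists 2 genes. It was far brighter than the kept Tyms probe sets, with a signal of 7900 to 11560 over the 10 arrays. It gave 10385, 10174 and 11176 in HoxA9, 11560, 11373 and 10817 in HoxA9+Meis1, 7900, 9241 and 8809 in NUP98-NSD1 and 10437 in MLL-ENL. NUP98-NSD1 was lower than both HoxA9 groups without overlap, by -0.29 and -0.38 (limma, adjusted p = 0.0367 and 0.0109).

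Smc4, the core condensin subunit, was the 1 of 56 further mitosis genes that differed between MLL-ENL and NUP98-NSD1 by limma, with 0 lower. It read 115986 in MLL-ENL, 70585, 74519 and 77643 in NUP98-NSD1, 56565, 49367 and 51942 in HoxA9, and 45899, 39356 and 43279 in HoxA9+Meis1. The MLL-ENL value was the highest of the 10 arrays (0.64 above NUP98-NSD1, adjusted p = 0.0153), and the call was lost after the shift to a common median, where 0 of the 56 were called.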
